A study of Mus musculus with 24 samples.

Results

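The neuroectoderm genes examined here are 10 genes given by symbol: the transcription factor genes Pax6, Sox1, Sox3, Sox11, Zic1, Six3 and Hes5, and the cytoskeletal genes Nes, Tubb3 and Map2. All 10 have a row in both of the authors' deposited tables, which hold 19780 genes for control cells and 19979 for paused cells, with 19134 in both. Poly(A) RNA was sequenced from E14, an embryonic stem cell line of the mouse, grown on gelatin in serum with leukaemia inhibitory factor. The groups were wild type, Smad2_KO1 and Smad2_KO2, the last 2 being Smad2 knockout lines, each in control medium and each paused for 12 h with INK128 at 200 nM, which blocks the growth kinase mTOR, with 4 libraries in each of the 6 groups. The labels do not say how the knockout lines were made, whether each is 1 clone, or whether the 4 libraries came from separate cultures, so the p-values may cover technical spread only. The files give 1 results row per gene and condition, with a mean normalized read count over libraries, a log2 change, its standard error (SE) and a p, and no value for a single library.

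Neuroectoderm is the embryonic layer that forms the neural plate and, from it, the brain and spinal cord. Epiblast cells take this fate when Nodal, activin and BMP signals are low, and Nodal, which acts through SMAD2 and SMAD3 together with SMAD4 and partners such as FOXH1, is known for holding it back while favouring mesendoderm. SOX1 and SOX3, which belong to the SOXB1 group with SOX2, and the homeodomain proteins PAX6 and SIX3 mark early neural cells, HES5 carries out Notch signals in progenitors, nestin (Nes) is their intermediate filament, and SOX11, beta-3 tubulin (Tubb3) and MAP2 are used as markers of cells becoming neurons.

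Smad2, the targeted gene, had a log2 change of -0.35 (SE 0.07) in control and -0.63 (SE 0.06) in paused cells, per the authors' deposited tables, so transcripts remained at 78.6% and 64.6% of the wild-type level. Which group is the numerator is not written in the tables. All changes are therefore read as knockout over wild type on the strength of this fall, and the other reading would turn each direction around. The call for Smad2 in control cells was lost under a null of changes up to 1.2-fold (adjusted p = 0.473) and when the statistic was scaled to its middle spread (adjusted p = 0.622). The stem cell markers Pou5f1, Nanog, Sox2, Zfp42, Esrrb, Klf2, Klf4, Tfcp2l1, Dppa3 and Utf1 were all in both of the authors' deposited tables, with means from 462 to 51710 normalized counts. In these bulk libraries a change in the share of cells that express a gene and a change in RNA per cell cannot be told apart.

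The 10 genes did not move together after Smad2 loss. Nes, Sox11, Map2 and Pax6 fell in both conditions, Sox1 and Six3 rose in both, Sox3 fell in paused cells, and Tubb3, Zic1 and Hes5 were called in neither. In control cells 6 of the 10 were called, that is, had an adjusted p below 0.05, in what the authors deposited, against 41.4% of all 19778 genes tested there. Of these, 4 were lower (21.9% of all genes were called lower) and 2 were higher (19.5% of all genes). In paused cells 7 of the 10 were called in the authors' deposited table, against 42.6% of all 19979 genes, with 5 lower (22.0% of all genes) and 2 higher (20.5% of all genes). The same 6 genes were called in the same direction in both tables, 4 lower and 2 higher, where 30.3% of all genes were called one way in both, 16.0% lower and 14.3% higher. The genes differed from one another in the size and direction of their change. A change of at least 2-fold was called for 3 members in control cells (6.98% of all genes) and for 4 in paused cells (7.10% of all genes). The median change of the 10 genes in the authors' deposited tables was -0.12 in control and -0.44 in paused cells, where the median over all genes was within 0.01 of 0 in both.

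**Figure D1:**
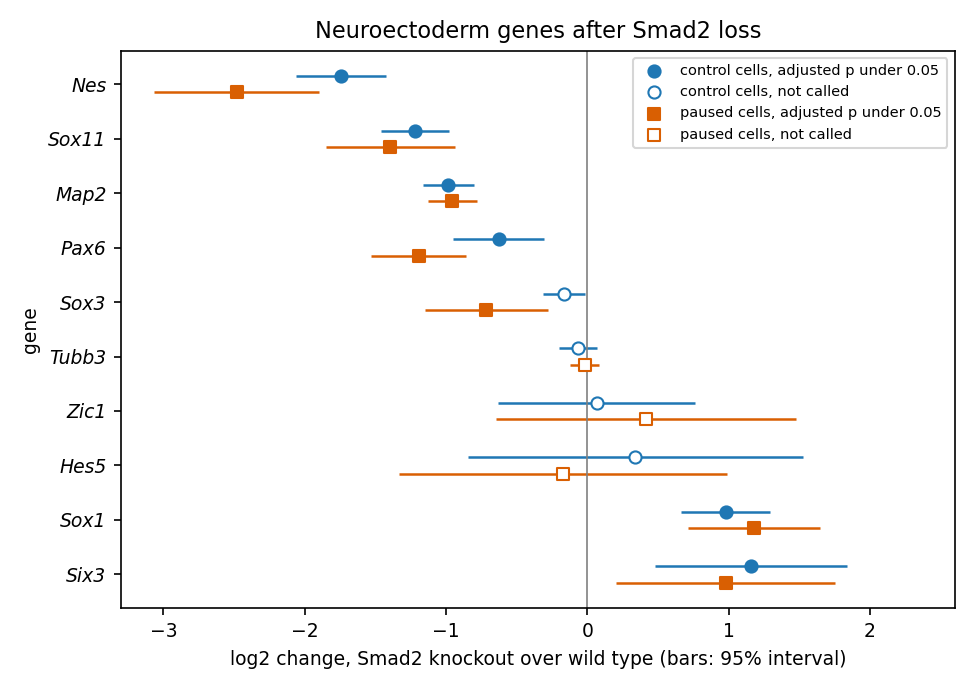
Log2 change after Smad2 loss of the 10 neuroectoderm genes (rows) in control cells (blue circles) and paused cells (orange squares), with bars for the 95% interval from the authors' SE and filled symbols for an adjusted p under 0.05. Nes lies farthest to the left at -1.74 and -2.48, Sox1 and Six3 lie near 1 in both conditions, and Tubb3 lies at 0 with a short interval.

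Promoter windows are shown for the 6 genes called the same way in both conditions, since these moved in opposite directions and SMAD proteins act at DNA. Each window runs from 250 bases before to 50 bases after a RefSeq start site (GRCm38.p6), 5′ to 3′ on the strand of the gene. Capitals mark matches to the SMAD element, which was searched as CAGAC on the strand shown and as its complement, which reads GTCTG there. They also mark matches to the FOXH1 element, which was searched as AATNCACA on the strand shown and as its complement, which reads TGTGNATT there. The falling genes come first. Pax6 has 2 start sites in the table.
Nes: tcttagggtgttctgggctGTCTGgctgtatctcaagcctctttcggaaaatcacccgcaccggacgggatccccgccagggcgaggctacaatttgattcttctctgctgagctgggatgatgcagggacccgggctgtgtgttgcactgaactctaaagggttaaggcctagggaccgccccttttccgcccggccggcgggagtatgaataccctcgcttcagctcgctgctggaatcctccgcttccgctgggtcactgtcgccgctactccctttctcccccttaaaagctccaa
Sox11: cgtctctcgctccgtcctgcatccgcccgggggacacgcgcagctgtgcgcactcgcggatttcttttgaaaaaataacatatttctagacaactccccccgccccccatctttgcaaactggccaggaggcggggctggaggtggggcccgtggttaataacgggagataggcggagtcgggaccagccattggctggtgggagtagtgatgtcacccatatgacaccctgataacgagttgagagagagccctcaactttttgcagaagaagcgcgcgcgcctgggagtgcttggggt
Map2: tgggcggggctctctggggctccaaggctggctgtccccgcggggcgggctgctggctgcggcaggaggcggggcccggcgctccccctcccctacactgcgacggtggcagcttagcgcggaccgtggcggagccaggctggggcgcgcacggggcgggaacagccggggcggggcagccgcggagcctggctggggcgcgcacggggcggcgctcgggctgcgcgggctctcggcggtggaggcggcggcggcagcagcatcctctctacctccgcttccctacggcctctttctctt
Pax6 first start: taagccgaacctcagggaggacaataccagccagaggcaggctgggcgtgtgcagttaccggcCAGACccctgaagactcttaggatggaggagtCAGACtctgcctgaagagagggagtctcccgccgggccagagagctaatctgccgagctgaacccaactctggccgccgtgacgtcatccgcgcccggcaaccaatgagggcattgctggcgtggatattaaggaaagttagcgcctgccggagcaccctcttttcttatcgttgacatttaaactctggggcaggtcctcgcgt
Pax6 second start: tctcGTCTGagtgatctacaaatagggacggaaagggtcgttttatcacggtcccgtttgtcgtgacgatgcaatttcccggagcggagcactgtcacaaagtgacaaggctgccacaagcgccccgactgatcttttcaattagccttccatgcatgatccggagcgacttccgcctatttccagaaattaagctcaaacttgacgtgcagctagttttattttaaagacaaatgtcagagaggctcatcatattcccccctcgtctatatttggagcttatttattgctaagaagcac
The rising genes follow.
Sox1: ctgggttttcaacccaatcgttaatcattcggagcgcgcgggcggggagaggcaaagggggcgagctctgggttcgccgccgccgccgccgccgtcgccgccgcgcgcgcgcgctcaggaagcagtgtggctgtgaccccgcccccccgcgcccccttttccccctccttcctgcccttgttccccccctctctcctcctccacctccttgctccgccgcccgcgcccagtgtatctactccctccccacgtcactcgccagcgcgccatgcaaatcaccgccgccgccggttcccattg
Six3: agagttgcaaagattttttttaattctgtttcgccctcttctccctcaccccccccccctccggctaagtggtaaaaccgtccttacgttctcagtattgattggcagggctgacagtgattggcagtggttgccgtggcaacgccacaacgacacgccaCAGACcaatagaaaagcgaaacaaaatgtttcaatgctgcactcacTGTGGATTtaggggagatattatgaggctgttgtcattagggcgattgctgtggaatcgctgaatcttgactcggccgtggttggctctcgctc
The windows lie at chr3:87970843-87971142, plus strand (Nes), chr12:27342669-27342968, minus strand (Sox11), chr1:66175079-66175378, plus strand (Map2), chr2:105668646-105668945, plus strand and chr2:105682213-105682512, plus strand (Pax6), chr8:12395269-12395568, plus strand (Sox1) and chr17:85620584-85620883, plus strand (Six3).

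Of the 10 genes, 9 had a window in the promoter table, with 10 windows in all. The SMAD element was found in 5 of these 10, against 49.6% of all 32851 windows of the same length, so its share in the members is that of promoters at large. Among the falling genes, Nes had it at -231 from the start, Pax6 had it at -187 and -155 of the first start and at -246 of the second, and Sox11 and Map2 had no match. Among the rising genes, Six3 had it at -90 and Sox1 had no match. Among the genes called in neither condition, Tubb3 had it at -159, and Zic1 and Hes5 had no match. The FOXH1 element was found in 2 of the 10 windows, those of Six3 (-44) and Hes5 (-157), against 3.60% of all windows. A match of these letters is a description and not a bound site. The RefSeq starts are not all at the GENCODE M21 gene starts: that of Six3 lies 7226 bases inside the gene, the second of Pax6 13563 bases inside, that of Sox1 224 and that of Tubb3 129 bases inside, and that of Sox11 144 bases before it, while the other 5 lie within 56 bases. No other window was searched. The members' windows were rich in CG dinucleotides, with a median of 23.5 in 300 bases against 7 over all windows, and with a median GC content of 62.0% against 52.7%. The lowest count of CG among the members, in Six3, was 14.

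By position the genes are scattered over the mouse genome. GENCODE M21 (GRCm38, the build that the submitters' processing notes name as mm10) places Map2 at chr1:66175273-66442583, Pax6 at chr2:105668900-105697364, Nes at chr3:87971078-87980451, Hes5 at chr4:154960923-154962371, Sox1 at chr8:12395295-12400126, Tubb3 at chr8:123411424-123422015, Zic1 at chr9:91358058-91365810, Sox11 at chr12:27334264-27342574, Six3 at chr17:85613608-85629302 and Sox3 at chrX:60891366-60893430. All are protein-coding, and only Sox1 and Tubb3 share a chromosome. The exons of Sox1, Sox3 and Sox11 fill their whole span, as is known for these single-exon SOX genes. The members' transcripts are close to unique: of all stretches of 50 bases in their transcripts, none of Sox3, Sox11, Nes, Zic1, Hes5, Tubb3 or Map2 recurred in a transcript of another gene, and 0.774% at most (Sox1, within a small RNA gene that lies inside it) did so.

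Levels differed by orders of magnitude. Per kilobase of exon, the authors' mean for control cells was highest for Tubb3, at 3102 normalized counts per kb, above 95.8% of genes with a known length. Nes followed at 329 and Sox3 at 203, which were above 67.1% and 58.0% of genes. Sox11 was at 109.8, Pax6 at 37.0, Map2 at 27.2 and Sox1 at 21.2 normalized counts per kb in the deposited control table, all below the median gene. Hes5 at 3.65, Six3 at 3.47 and Zic1 at 1.88 normalized counts per kb lay in the lowest 10% of genes. In the deposited paused table Tubb3 (1028) and Nes (334) again led, Sox11 (87.6) stood above Sox3 (61.6) and Map2 (22.9) above Pax6 (21.7), and Sox1 (12.0), Hes5 (3.38), Six3 (2.90) and Zic1 (1.33) followed as before. These means carry no error in the tables, so neighbours in the order cannot be separated by a test. They also pool wild type and knockout, and the order can depend on the genotype. Implied levels per genotype, which assume 4 wild-type and 8 knockout libraries, put Sox3 (195 per kb) above Nes (185 per kb) in control knockout cells. With the changes read as wild type over knockout, the lower Nes level would belong to wild type. Pax6 (34.7 per kb) and Map2 (33.8 per kb) in paused wild-type cells changed order when 4 knockout libraries were assumed. The length used is that of all annotated exons merged, 11694 bases for Pax6, 16449 for Map2 and 2065 for Sox3. It can exceed that of any 1 transcript, which lowers the value per kb. By mean count in control cells, Pax6 (432) and Map2 (447) stood slightly above Sox3 (418). On the per-kb scale the neural markers Sox1, Pax6 and Six3 lay below the median gene in both conditions, while Tubb3 was abundant.

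**Figure D2:**
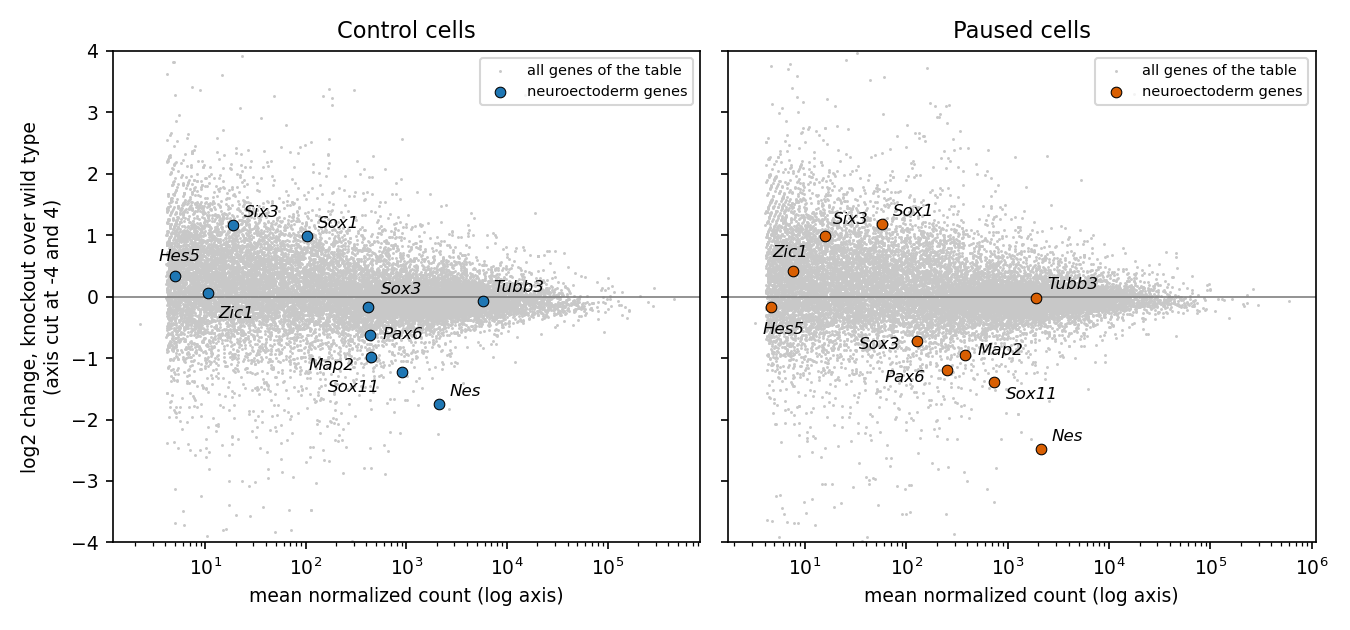
Log2 change against the mean normalized count (log axis) for all genes of each deposited table (grey) and the 10 neuroectoderm genes (coloured), control cells left and paused cells right. Nes lies at -1.74 (control) and -2.48 (paused), well below most genes with similar means, while the 2 rising genes, Sox1 and Six3, have means of at most 103 normalized counts.

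Nes codes for nestin, the intermediate filament of neural progenitors, and had the steepest fall of the 10. The authors' deposited tables give it a mean of 2113 (control) and 2142 (paused) normalized counts. If 4 wild-type and 8 knockout libraries entered each table, these means and changes imply about 3969.7 counts in wild type and 1184 in knockout control cells, and 4732 and 847 in paused cells. The log2 change was -1.74 (SE 0.16, adjusted p = 4.69e-25) in control and -2.48 (SE 0.30, adjusted p = 2.59e-15) in paused cells, per the authors' deposited tables, or 3.35-fold and 5.58-fold lower. Read as knockout over wild type, the knockout kept 29.8% of wild-type Nes in control and 17.9% in paused cells. On the other reading it would stand 3.35-fold and 5.58-fold above wild type. The 95% intervals, -2.06 to -1.43 and -3.06 to -1.90, overlapped.

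Sox11 codes for a SOXC factor of immature neurons and was the next lowest. Its implied level went from 1474 normalized counts in wild type to 632 in knockout control cells and from 1240.5 to 471 in paused cells, under the same assumption of 4 and 8 libraries. The change in the authors' deposited tables was -1.22 in control (SE 0.12, adjusted p = 1.34e-21) and -1.40 in paused cells (SE 0.23, adjusted p = 2.42e-08). This is 2.33-fold and 2.63-fold lower. Of the other SOXC genes, Sox4 fell by 0.60 and 0.50 in the authors' deposited tables, and Sox12 was not called (0.04 and 0.08).

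Map2 codes for a microtubule-associated protein of dendrites. It had the most precise fall, with a change in the authors' deposited tables of -0.98 in control (SE 0.09, adjusted p = 1.36e-24) and -0.96 in paused cells (SE 0.09, adjusted p = 2.36e-25). The implied level was 667 normalized counts in wild type against 337 in knockout control cells, and 556 against 286 in paused cells. Read as knockout over wild type, the knockout level was close to 51% of wild type in both conditions (50.6% and 51.5%), just short of a 2-fold fall. On the other reading it would stand 1.98-fold and 1.94-fold above wild type.

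Pax6, a homeodomain factor of forebrain and eye progenitors, fell by 0.63 in control cells (SE 0.17, adjusted p = 0.000703) and by 1.19 in paused cells (SE 0.17, adjusted p = 5.79e-11) in the authors' deposited tables. Its implied level was 565 in wild type against 366 normalized counts in knockout control cells, and 405 against 177 in paused cells. The smaller fall, in control cells, was no longer called under a null of changes up to 1.2-fold (adjusted p = 0.0953).

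Sox1 and Sox3, close relatives of the SOXB1 group, went in opposite directions. Sox1, which is switched on as the neural plate forms, had an implied 62.3 normalized counts in wild type and 123 in knockout control cells, and 31.4 and 71.1 in paused cells. Its change in the authors' deposited tables was 0.98 in control (SE 0.16, adjusted p = 1.41e-08) and 1.18 in paused cells (SE 0.24, adjusted p = 5.38e-06), or 1.97-fold and 2.26-fold higher. Both calls of Sox1 ended when the statistic was scaled to its middle spread (adjusted p = 0.411 and 0.575). Sox3, which is also expressed in the epiblast, had a change of -0.16 in control cells that was not called (SE 0.07, adjusted p = 0.0652), with an interval of -0.31 to -0.02, and fell by 0.72 in paused cells (SE 0.22, adjusted p = 0.00446) in the authors' deposited tables. The paused call of Sox3 was lost under a null of changes up to 1.2-fold (adjusted p = 0.135). The third SOXB1 gene, Sox2, is a stem cell factor far more abundant here (24021 and 25153 normalized counts) and was not called in either of the authors' deposited tables (0.06 and -0.06).

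Six3, a repressor of posterior fates in the anterior neural plate, rose from a level near the floor of the tables. The authors' deposited tables give it a mean of 18.9 (control) and 15.8 (paused) normalized counts, and the implied level went from 10.4 in wild type to 23.1 in knockout control cells and from 9.58 to 18.9 in paused cells. The change was 1.16 in control (SE 0.35, adjusted p = 0.00335) and 0.98 in paused cells (SE 0.39, adjusted p = 0.0332) in the authors' deposited tables, with wide intervals of 0.48 to 1.84 and 0.21 to 1.75. The paused call is the weakest of the 13 made on the members and was lost at an adjusted p under 0.01 and under a null of changes up to 1.2-fold (adjusted p = 0.205). Six3os1, a noncoding gene on the opposite strand that overlaps Six3, also rose in the authors' deposited tables, by 1.73 in control (SE 0.43, mean 17.1) and 1.23 in paused cells (SE 0.18, mean 57.4). The library kit keeps strand, but whether the counting used it is not given in the sources used here, so reads of the overlap cannot be assigned to either gene with certainty. Six3os1 was the sole gene with a value in the tables among the annotated genes that overlap a member.

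Tubb3, Zic1 and Hes5 were called in neither condition, and their intervals differed in width. Tubb3, the neuronal beta tubulin, was measured tightly: its change in the authors' deposited tables was -0.07 (SE 0.07, interval -0.20 to 0.07, adjusted p = 0.453) in control and -0.02 (SE 0.05, interval -0.12 to 0.09, adjusted p = 0.82) in paused cells. These intervals leave room for a fall of at most 13.2% and a rise of at most 6.11%. Zic1, a zinc finger factor of dorsal neural tissue, had a mean of 10.7 and 7.59 normalized counts and changes of 0.07 (SE 0.36, adjusted p = 0.906) and 0.41 (SE 0.54, adjusted p = 0.571) in the authors' deposited tables. Hes5 had a mean of 4.97 and 4.61 normalized counts, with changes of 0.34 (SE 0.60, adjusted p = 0.69) and -0.17 (SE 0.59, adjusted p = 0.847). A 2-fold rise of Hes5 in control cells, a 2-fold fall of Hes5 in paused cells and a 2-fold rise of Zic1 in paused cells lay inside the 95% intervals. Changes of that size were therefore not excluded.

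Whether pausing altered the effect of Smad2 loss was tested per gene as the paused minus the control change over the combined SE, with adjustment over the 19134 genes in both tables. None of the 10 members passed, where 1.44% of all genes did, and 3 members had an unadjusted p under 0.05. The largest of these differences were those of Nes (-0.74, SE 0.34, adjusted p = 0.314), Pax6 (-0.57, SE 0.24, adjusted p = 0.25) and Sox3 (-0.55, SE 0.23, adjusted p = 0.257), all with the deeper fall in paused cells. The differences of Map2 (0.03, interval -0.22 to 0.28) and Tubb3 (0.05, interval -0.12 to 0.22) were bounded near 0. For Sox1 (0.20, interval -0.36 to 0.76), Sox11 (-0.18, interval -0.69 to 0.34) and Six3 (-0.18, interval -1.21 to 0.85) the interval covered differences in both directions. Sox3, called in paused cells and not in control cells, was therefore not shown to respond differently in the 2 conditions.

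The members differed in how precisely their change was measured. For each gene the SE was set beside the median SE of genes whose mean lay between 20% below and 25% above its own. In the authors' deposited table of paused cells the SE of Nes was 6.02 times that median and larger than that of 99.9% of 1497 such genes, and the SE of Sox11 was 3.44 times the median and larger than that of 98.7%. In control cells the same ratios were 2.72 for Nes, 1.69 for Sox11 and 1.82 for Pax6, and Pax6 had 1.64 in paused cells. Sox3 went from 0.82 in control to 1.62 in paused cells, while Map2 (1.02 and 1.04) stayed near the typical SE. Tubb3 had 1.30 in control cells, an SE larger than that of 77.8% of such genes, and 1.05 in paused cells. At a given mean the SE grows with the spread between libraries. Whether that spread lies between Smad2_KO1 and Smad2_KO2 or within a group was not tested, since the tables hold no library values. The scaling to the middle spread divides every statistic of a condition by the same number, which takes the middle of all genes as unchanged. Calls over all genes went from 8189 to 293 in control and from 8504 to 450 in paused cells. A call lost under it is therefore no measure of a member's own spread. After this scaling, the calls of Nes, Sox11 and Map2 in control cells and that of Map2 in paused cells remained. The other 9 member calls were lost. In paused cells these were Nes (adjusted p = 0.0986), Sox11 (0.388), Pax6 (0.242) and Sox3 (0.875), and in control cells Pax6 (adjusted p = 0.816). Both rises lost their call in both conditions, Sox1 as given above and Six3 with an adjusted p of 0.883 in control and 0.953 in paused cells, so that no member was called higher after this scaling.

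**Figure D3:**
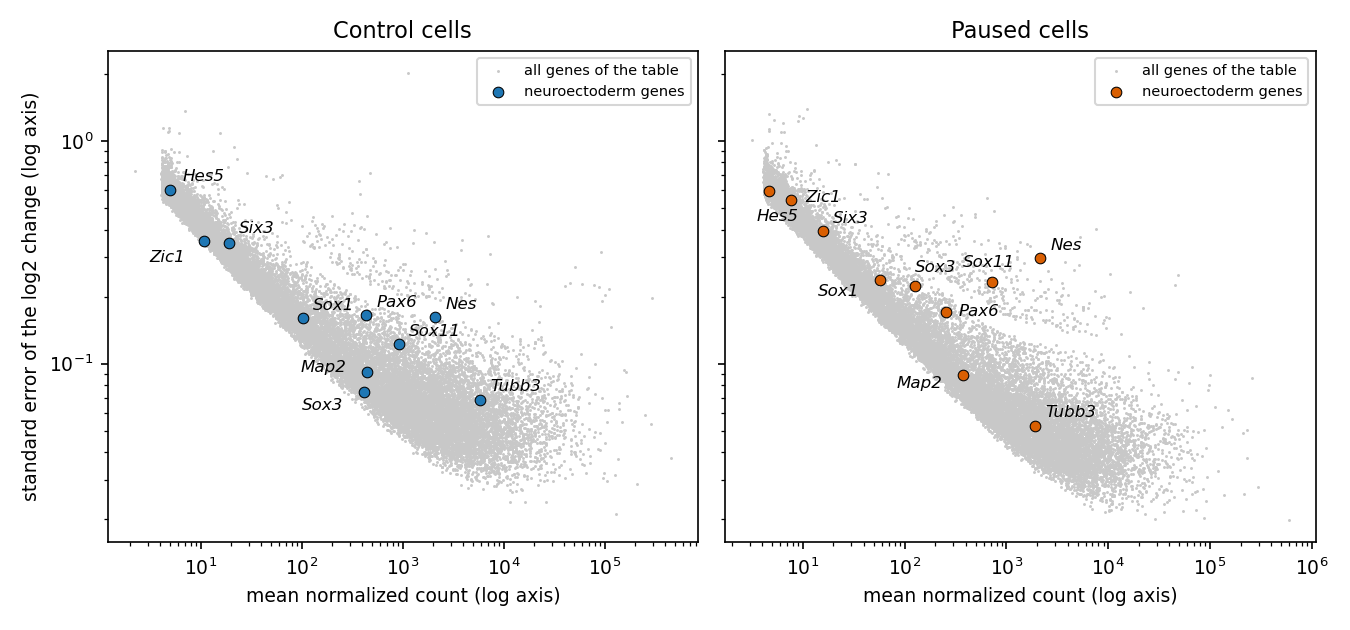
Standard error of the log2 change against the mean normalized count (both log axes) for all genes of each deposited table (grey) and the neuroectoderm genes (coloured), control cells left and paused cells right. In paused cells Nes and Sox11 sit in the sparse band above the main cloud, at 6.02 and 3.44 times the median SE of genes with similar means, whereas Map2 and Tubb3 sit inside the cloud.

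Pausing itself was not tested, because the tables were normalized separately and compare genotypes only. As a description, the implied group levels were expressed in ppm of their sum. Tubb3 went from 127 ppm in wild-type control to 43.0 ppm in wild-type paused cells, 2.94-fold lower, and from 125 to 43.5 ppm in the knockout. Sox3 went from 9.54 to 3.82 ppm in wild type and from 8.85 to 2.39 ppm in the knockout. Over all genes the median ratio of paused to control was 1.07 in wild type, and in wild type 1.72% of genes had a lower ratio than Tubb3 and 2.99% a lower ratio than Sox3. Sox1 was 1.89-fold lower in paused wild-type cells (1.32 and 0.698 ppm). Nes had 84.0 and 105 ppm in wild type but 26.1 and 19.3 ppm in the knockout. It was higher in paused than in control cells in wild type and lower in the knockout. That contrast is the same one whose test gave an adjusted p of 0.314. The genotype labels rest on reading the changes as knockout over wild type. On the other reading, the higher Nes levels and their rise under pausing would belong to the knockout. None of these ratios has an error.

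Other genes tied to the neural programme were read from 7 lists, which together name 126 genes besides the members. The lists also hold repressors of neuronal genes and family relatives such as Tubb5 and Map4. Their pooled counts are therefore not those of neural genes alone. In control cells 67 of the 114 in the authors' deposited table were called, 34 higher and 33 lower, and in paused cells 63 of 115, 31 higher and 32 lower. The lists' median over all these genes was -0.01 in control and 0.07 in paused cells. Over all genes 41.4% were called in control cells (19.5% higher and 21.9% lower) and 42.6% in paused cells (20.5% higher and 22.0% lower). Of all called genes 47.1% (control) and 48.2% (paused) were higher, a share that became 60.5% and 57.6% with equal summed counts, 64.5% and 71.3% with the scaled statistic and 63.9% and 68.8% at 2-fold or more.

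Among transcription factors of the neural plate and its progenitors, 25 of 30 were in the authors' deposited control table, with 9 higher and 5 lower, and 26 in the paused table, with 9 higher and 6 lower. Irx3, a homeobox gene of the posterior forebrain and spinal cord, rose by 2.46 (SE 0.20) and 3.16 (SE 0.24) in the authors' deposited tables, and Pax2, of the midbrain border and kidney, by 0.81 (SE 0.28) and 1.35 (SE 0.31). Pou3f1 (Oct6), a POU factor of the late epiblast and early neural cells, fell by 1.49 (SE 0.10) and 1.92 (SE 0.24), and Zfp521, a zinc finger protein that promotes neural fate, by 1.16 (SE 0.29) and 1.33 (SE 0.20). Among proneural and neuronal differentiation factors, 18 of 21 were in the authors' deposited tables, with 6 higher and 2 lower in control and 4 higher and 3 lower in paused cells. Their largest called changes at a mean of at least 10 were rises, and those of Myt1 and Ebf3 were called in 1 condition each. In the authors' deposited tables Myt1 had 1.36 (SE 0.47) in control and an uncalled 0.40 (SE 0.51) in paused cells, and Ebf3 an uncalled 0.38 (SE 0.30) in control and 1.21 (SE 0.35) in paused cells. Myt1l rose in both, by 1.01 (SE 0.28) and 1.27 (SE 0.18).

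Genes of progenitor filaments, adhesion and stem cell identity included several that fell with Nes. Of 14 listed, 12 were in the authors' deposited tables, with 5 lower and 3 higher in control and 4 of each in paused cells. Cdh2, which codes for N-cadherin, fell by 1.30 (SE 0.15) and 1.53 (SE 0.25), Prom1, for the surface protein CD133, by 1.12 (SE 0.16) and 1.33 (SE 0.25), and Ncan, for the matrix protein neurocan, by 0.80 (SE 0.12) and 1.05 (SE 0.14) in the authors' deposited tables. Nr2f2, a nuclear receptor gene, rose by 0.92 (SE 0.26) and 1.94 (SE 0.31). Vim, the filament that pairs with nestin and is counted on the cytoskeleton list, had values of -0.08 (SE 0.12) and -0.25 (SE 0.20) and was not called.

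Among neuronal cytoskeleton and outgrowth genes, all 20 were in the authors' deposited tables, with 7 higher and 9 lower in control and 7 higher and 5 lower in paused cells. The neurofilament gene Nefl fell by 1.77 (SE 0.23) in control and 0.69 (SE 0.28) in paused cells, Ina, for internexin, by 0.94 (SE 0.10) and 1.24 (SE 0.08), and the tubulin gene Tubb4a by 1.00 (SE 0.18) and 1.25 (SE 0.32) in the authors' deposited tables. Dclk1, a doublecortin-like kinase gene, fell by 2.63 (SE 0.34) in control cells, with an uncalled 0.17 (SE 0.12) under pausing. Mapt, which codes for tau and stands beside Map2 in function, was chosen after its values were seen: it rose by 0.81 (SE 0.07) and 0.70 (SE 0.06) while Map2 fell.

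Among Notch ligands, receptors and targets, the pathway upstream of Hes5, 21 of 22 were in the authors' deposited tables, with 5 higher and 11 lower in control and 4 higher and 9 lower in paused cells. The list median was -0.27 and -0.18. The ligand gene Dll3 fell by 0.92 (SE 0.11) and 0.80 (SE 0.13), and Hes6, a HES relative that opposes HES1, by 0.81 (SE 0.08) and 0.53 (SE 0.09) in the authors' deposited tables. The ligand gene Dll4 rose by 0.81 (SE 0.26) and 0.99 (SE 0.31), as did Id1, a known BMP target, by 0.43 (SE 0.07) and 0.91 (SE 0.07). Hes1, the HES gene most used in stem cells, was not called (-0.05 and 0.08).

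Relatives from the same gene families, a list that shares genes with the others, gave 6 higher and 7 lower of 23 in the control and 5 higher and 9 lower of 24 in the paused table that the authors deposited. Among those called at a mean of 10 or more, the largest changes besides those of Hes6 and Sox4 were falls of Hes3 in control cells (-0.77, SE 0.30, with an uncalled 0.20, SE 0.63, under pausing) and of Tubb6 (-0.53, SE 0.20 and -0.60, SE 0.22) in the authors' deposited tables. At lower means, and chosen after their values were seen, Hes7 had a called -1.29 (SE 0.46, mean 6.51) in control cells and an uncalled -0.34 (SE 0.44) in paused cells. Six6, a relative of Six3 with no row in the control table, had a called -1.93 (SE 0.47, mean 7.74) in paused cells. The REST complex, which silences neuronal genes outside the nervous system, changed little: 1 of 10 genes was called in control and 3 in paused cells, all by less than 1.2-fold. Rest itself rose by 0.22 (SE 0.06) in control cells, with an uncalled 0.10 (SE 0.05) under pausing, and Sin3a (0.15, SE 0.03), Rcor1 (-0.13, SE 0.05) and Hdac1 (-0.10, SE 0.04) were called in the authors' deposited paused table.

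**Figure D4:**
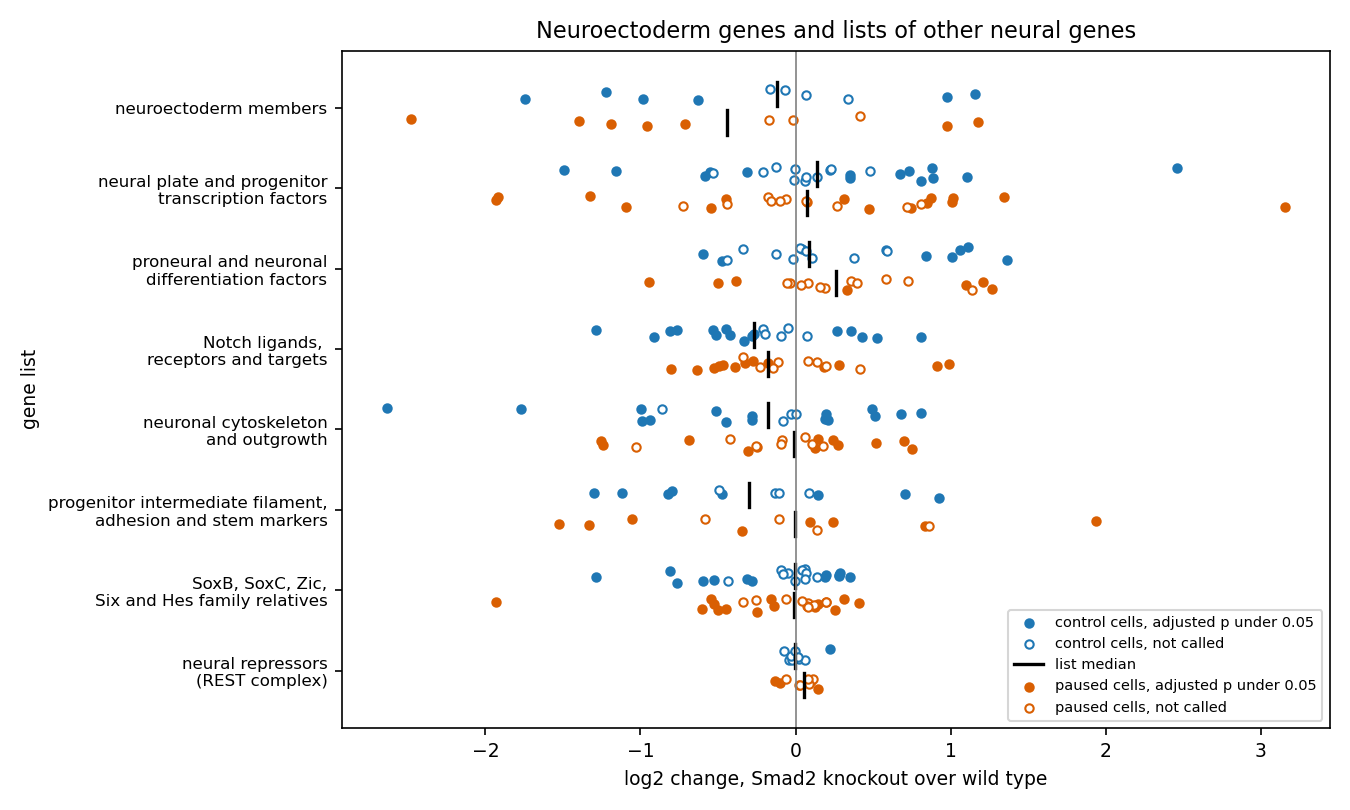
Log2 change after Smad2 loss of the neuroectoderm genes and of the genes of 7 neural lists (rows), in control cells (blue) and paused cells (orange), filled where the adjusted p is under 0.05 and with a black line at the list median. Each list has called genes on both sides of 0 in both conditions, except the REST complex in control cells, and the medians lie between -0.44 and 0.26.

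Markers of other early cell types were read in the same tables, where 41.4% of all genes were called in control and 42.6% in paused cells. The calls of the stem cell markers (5 of 10 and 4 of 10) and trophoblast markers (4 of 8 in both) were near these shares. Of 8 primitive endoderm markers, 7 were present and all 7 were higher in both of the authors' deposited tables, with an implied sum of 6099 normalized counts in wild type and 10382 in knockout control cells, and 7251 and 11948.5 in paused cells, and Afp was absent from both tables. Of 8 mesendoderm markers, 7 were present, with 3 lower and 1 higher in control and 2 lower in paused cells, and an implied sum that went from 1469.9 to 419.9 in control and from 1185 to 414 in paused cells (Mesp1 was absent). The primitive streak gene T, which made up much of that sum, changed by -4.66 (SE 0.48) and -3.86 (SE 0.43) in the authors' deposited tables. Of 6 formative epiblast markers, 5 were lower in control cells, and 4 were lower and 1 higher in paused cells, with an implied sum of 31800 and 24067 (control) and 19973 and 16937 (paused) normalized counts. Most of that sum is Dnmt3b (-0.32, and an uncalled -0.10 in paused cells), while the list median was -0.947 and -0.995 and Fgf5 changed by -2.61 and -2.63 in the authors' deposited tables. The list includes Otx2, Pou3f1 and Cdh2, which are also on the neural lists. Of 8 trophoblast markers, all present, 3 were higher and 1 was lower in both tables, with an implied sum of 20254 and 16557 normalized counts in control and 22056 and 19285 in paused cells. Of the abundant members of that list, Krt8 and Krt18 had uncalled changes below 0 (-0.78 and -0.56 in control cells), whereas Hand1 (1.95), Ascl2 (1.35) and Krt7 (1.29) rose there, so the sum and the calls differ in direction. Of the 10 stem cell markers, 2 were higher and 3 lower in control cells and 2 were higher and 2 lower in paused cells, with implied sums between 197057 and 207829 in the 4 groups. Among them Klf4 (0.56, SE 0.06 and 0.26, SE 0.06) and Nanog (0.32, SE 0.06 and 0.18, SE 0.07) rose in both of the authors' deposited tables, and Dppa3 fell in both (-0.50, SE 0.13 and -0.62, SE 0.14). What part these other cell types have in the changes of the neuroectoderm genes was not tested.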

How the data were processed

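The 10 members were given by symbol, and the members and lists were chosen with earlier results of these data known. The submitters' processing notes name FastQC, Trim Galore, HISAT2, featureCounts and DESeq2 and the build mm10; versions, annotation, strand setting and the libraries of each comparison are not given in the sources used here. Per the file headers, the authors deposited, for each gene and condition, a mean of normalized counts (a signal value), a log2 change with its SE on the log2 scale, a statistic (a score) equal to the change over its SE, a p-value and an adjusted p-value. Every adjusted p matched a Benjamini-Hochberg recomputation within 1 percent. All p-values for a genotype effect are the authors' DESeq2 values, adjusted over all genes; a gene was called at an adjusted p under 0.05. The files give no depth for any library, and the SE is the only measure of precision. Computed here, with Python 3.11.15, numpy 2.4.6, scipy 1.17.1, pandas 2.3.3 and matplotlib 3.10.9, were the 95% intervals (normal), the test of the difference between conditions (two-sided normal, checked on simulated tables), implied group levels that assume 4 wild-type and 8 knockout libraries per table, and counts per kb of merged GENCODE M21 exons, found for 87.8% and 87.2% of genes. Count tests on libraries and tests without a library could not be run on results tables. Named list genes were the 4 called genes of each list with the largest change and a mean of at least 10, of which 1 is not reported here; other names in the text were chosen after their values were seen. Alternatives were a stricter threshold of 0.01, a test against 1.2-fold, a scaled statistic, 2 rescalings, a minimum mean of 10 and a 2-fold minimum.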

Additional observations from a re-analysis of the deposited data

Results flagged for a closer look

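Of the neuroectoderm members and the genes of the neural and marker lists, 169 were in both tables and 5 of these (2.96%) had a called difference between the knockout effect under pausing and that in control cells, against 1.44% of all genes. None of the 5 is a member, and 3 members had an unadjusted p under 0.05. Dclk1 differed by 2.81 on the log2 scale (SE 0.36, adjusted p = 2.1e-10), with a called fall in control cells and an uncalled 0.17 in paused cells. Id1 differed by 0.48 (SE 0.10, adjusted p = 0.000357), with the larger rise in paused cells. Msi1, which codes for the progenitor RNA-binding protein Musashi, differed by 0.38 (SE 0.11, adjusted p = 0.0326), from an uncalled -0.13 in control to 0.24 in paused cells. The stem cell factor gene Klf4 differed by -0.30 (SE 0.08, adjusted p = 0.0264), with the larger rise in control cells. The mesendoderm gene Eomes differed by 0.89 (SE 0.25, adjusted p = 0.0326), from -0.94 in control to an uncalled -0.06 in paused cells.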

How the results depend on the processing

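No member changed direction in a called value under any alternative. Of 137 alternative values for the change of a member, 118 kept the same side of the threshold and 19 lost the call. The statistic scaled to its middle spread accounted for 9 of these, the 2-fold minimum for 6, the null of changes up to 1.2-fold for 3 and the threshold of 0.01 for 1. With the scaled statistic 3 members were called in control and 1 in paused cells, and with the 2-fold minimum 3 and 4. Over all genes the 1.2-fold null left 2404 calls in control and 2426 in paused cells, the scaled statistic 293 and 450, and the 2-fold minimum 1380.0 and 1418. The neural lists together kept 27 and 27, 4 and 6, and 13 and 17 calls under the same alternatives. For the difference between conditions, 102 genes remained below 0.01 and 35 with the scaled statistic, and 0 members were called under the 4 alternatives run, with 3 at an unadjusted p under 0.05. With equal summed counts, which added 0.06 to each change in control and 0.04 in paused cells, 60.5% of control calls were higher against 47.1% as deposited, and the members' counts of 6 and 7 stayed the same. If 4 knockout libraries entered instead of 8, implied levels moved by more than the SE of the change in 14 of 40 cases, for example to 3255 and 971 for Nes in wild-type and knockout control cells. No paired analysis was possible because the tables hold no value per library, and leaving out a replicate or using another count tool was not run for the same reason. For Hes5, Zic1 and Six3 the low counts limit what can be detected.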

Other observations

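Lists of other ectodermal and glial cell types, not described so far, gave the following, where 41.4% (control) and 42.6% (paused) of all genes were called. Of 10 neural crest and surface ectoderm markers, 9 were in the authors' deposited tables, with 4 higher and 2 lower in control and 3 higher and 2 lower in paused cells. The homeobox gene Dlx5 rose by 1.499 (SE 0.30) in control and 2.20 (SE 0.74, mean 5.12) in paused cells and the AP-2 factor gene Tfap2a by 0.61 (SE 0.16) and 0.82 (SE 0.16). Trp63, which codes for the epidermal factor p63, rose by 1.74 (SE 0.55, mean 6.99) in control cells and had an uncalled -0.11 (SE 0.48) in paused cells, while the changes were -1.08 (SE 0.21) and -1.32 (SE 0.31) for Ets1 and -1.58 (SE 0.31) and -2.12 (SE 0.48) for the basal keratin gene Krt14, all chosen after their values were seen. Of 7 astrocyte and oligodendrocyte markers, 5 were in the authors' deposited tables and none was called in the DESeq2 values of either, while Aqp4 and Olig2 were absent from both.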
